A study of Mus musculus with 17 samples.

Results

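The levels of 7 long non-coding RNAs were followed through the pressure-overloaded mouse heart: H19, Meg3, Malat1, Neat1, Miat, Gas5 and 4833412C05Rik, which RefSeq also lists under the name Bigheart. They were chosen by gene symbol, with earlier results of these data known. All 7 were found among the 21798 genes listed for bulk RNA sequencing of tissue from the apex of the left ventricle. The 17 libraries came from male C57Bl6/J mice aged 7 to 8 weeks at surgery, 1 library for each animal number. Transverse aortic constriction (TAC) narrows the aortic arch and loads the left ventricle with pressure, and Sham animals had the operation without the constriction. The αvβ3 integrin-binding RGD mimetic 29P, an oral prodrug, was given by gavage at 50 µg/kg in 6 doses over 2 weeks from 1 week after surgery, and Vehicle (Veh) animals received saline. All tissue was taken 3 weeks after surgery, from 9 TAC mice (3 on Vehicle, TAC Veh, and 6 on 29P, TAC 29P) and 8 Sham mice (5 on Vehicle, Sham Veh, and 3 on 29P, Sham 29P). The authors had removed 1 Sham 29P and 1 TAC Veh library for low read numbers. They also removed 1 more TAC Veh library because it grouped with the Sham libraries. Libraries are named by the S number of their labels, and runs of adjoining animal numbers are called run A (9 libraries), B (3), C (2) and D (3).

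Long non-coding RNAs are transcripts that are not translated into known proteins. They act in several ways: as scaffolds of nuclear bodies (Neat1 in paraspeckles, Malat1 in nuclear speckles), as hosts of small RNAs (H19, Meg3, Gas5) or as binding partners of splicing factors (Miat). H19 and Meg3 are imprinted and expressed from the maternal chromosome, each beside a growth-related gene expressed from the paternal one, Igf2 and Dlk1 respectively. H19 is abundant in the fetal heart and falls after birth, and Meg3 is known from cardiac fibroblasts. These libraries were made from RNA captured on oligo(dT) beads, so a transcript without a poly(A) tail or an internal stretch of A is recovered poorly.

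Sequencing depth, read from the step between low values, was 14.2 to 23.8 M reads per library. Mitochondrially encoded genes took 23.6 to 29.4% of the counts in the 9 TAC libraries and 29.1 to 40.0% in the 8 Sham libraries. All 10 cardiomyocyte markers were detected in every group. The 3 libraries of run D (S18 of TAC 29P, S19 and S20 of Sham Veh) held genes of atrial myocytes although the tissue is labelled ventricle: Sln was 161.5 to 441.4 CPM (reads of a gene relative to all reads counted on genes in the library, scaled to 1 M) in them against 0 to 0.63 CPM in the other 14, and Myl7 was 335.5 to 895 CPM against 0 to 1.002 CPM. Values of the members without these 3 libraries are given below where they moved by over 1.5 times.

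The members differed widely in level. Per kilobase of annotated exon, the median over the 17 libraries was 80.6 CPM for Malat1, 33.01 for Neat1, 8.19 for Gas5, 2.96 for H19, 0.83 for Meg3, 0.25 for 4833412C05Rik and 0.0052 for Miat. Malat1 stood above Neat1, Neat1 above Gas5 and H19 above Meg3 in 17 of 17 libraries each. Gas5 exceeded H19 in 14 of 17 and Meg3 exceeded 4833412C05Rik in 15 of 17, so these neighbours overlapped. The place of Neat1 depended on the length used: over the 3004 bases of its short transcript, instead of 20771 bases, its median was 228.2 CPM per kilobase, above Malat1 in 17 of 17 libraries. Miat was seen in 0 to 4 reads per library and failed the filter of 0.5 CPM in at least 3 libraries, so 6 of the 7 members were tested.

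**Figure D1:**
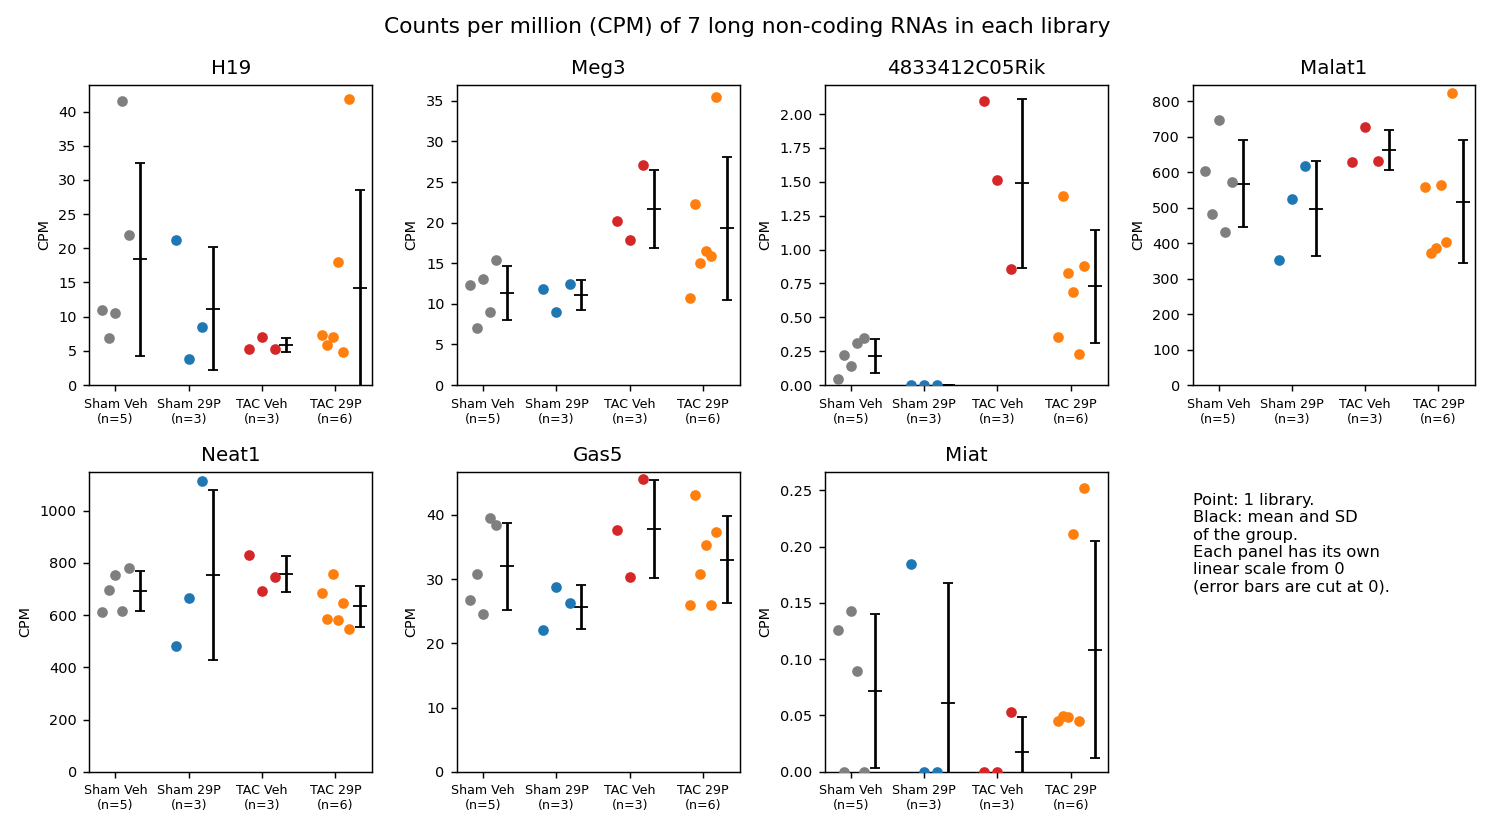
Level of each long non-coding RNA in CPM (linear axis from 0, 1 scale per panel). Each point is a library and the black bar gives the mean and SD of its group; the 3 TAC Veh libraries lie above all 5 Sham Veh libraries for Meg3 and for 4833412C05Rik, and the highest H19 values are those of animal run D.

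To ask which of the RNAs changed with pressure overload, TAC was compared with Sham within each treatment. In TAC Veh against Sham Veh mice, 2 of the 6 tested members passed an adjusted p of 0.05 (limma, Benjamini-Hochberg over the 16218 tested genes), both higher: 4833412C05Rik and Meg3. Of all genes tested, 25.6% passed in this comparison. In TAC 29P against Sham 29P mice 4833412C05Rik alone passed, among 32.7% of all genes. The groups did not overlap for 2 of the 7 members in the Vehicle comparison (29.8% of all genes tested) and for 1 of 7 in the 29P comparison (26.1%). The TAC Veh group is without the library that the authors removed for grouping with Sham libraries. At the background shares, between 1 and 2 of 6 genes would be called in either comparison. Because the members were chosen with earlier results of these data known, their p-values are not independent of that choice.

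Most genes rose in CPM after TAC. Over all genes tested the median log2 fold change was 0.33 in TAC Veh against Sham Veh and 0.36 in TAC 29P against Sham 29P, with 3827 genes called higher and 321 lower in the former. With trimmed mean of M values (TMM) scaling, which centres the middle of the genes, the medians were 0.02 and 0.02 and the same comparison gave 747 genes higher and 900 lower. Changes of the members after TAC are therefore also given with TMM scaling, and all fold changes are on the scale of log2(CPM + 0.1).

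The largest change was that of 4833412C05Rik (ENSMUSG00000097697), an intergenic RNA in 5 exon blocks at chr7:67784538-67804139 on the minus strand (mm10, GENCODE vM21), overlapped by no other annotated gene. Its promoter in RefSeq (GRCm38.p6, chr7:67803447-67803746, minus strand, 250 bases before to 50 after the start) is shown because this is the member that changed most, with GGAAA, the core that NFAT factors bind, or its reverse complement TTTCC in capitals.
4833412C05Rik: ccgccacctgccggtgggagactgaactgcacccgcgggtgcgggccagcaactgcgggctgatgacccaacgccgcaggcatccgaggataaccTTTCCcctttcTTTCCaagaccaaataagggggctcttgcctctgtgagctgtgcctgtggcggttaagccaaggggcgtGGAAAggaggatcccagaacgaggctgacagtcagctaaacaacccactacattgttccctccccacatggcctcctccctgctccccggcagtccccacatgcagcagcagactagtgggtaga

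This RefSeq window lies inside the GENCODE span of the gene, downstream of its GENCODE start. The window held 3 matches, and 61.3% of the 32851 promoters of the table held at least 1 on either strand, so a match is common. TATAAA (13.6% of promoters), CCAAT (37.4%) and TGACGTCA (1.79%) were searched on both strands and were not in it.

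Few reads lay behind this gene, and its low values were whole multiples of 1 read. In TAC Veh mice it had 42 reads in S2, 31 in S12 and 16 in S16, against 1 in S5, 5 in S6, 3 in S13, 7 in S19 and 7 in S20 of Sham Veh mice. Every TAC Veh library was above every Sham Veh library. The levels were 1.49 ± 0.62 CPM (SD, n = 3) and 0.21 ± 0.13 CPM (SD, n = 5). The log2 fold change was 2.37 (SE 0.49, 95% interval 1.35 to 3.39, adjusted p = 0.0046 by limma), and the exact two-sided permutation p = 0.0179, the smallest that 3 against 5 libraries allow. The difference stood at 2.10 with TMM scaling (adjusted p = 0.0107), at 2.75 without animal run D (adjusted p = 0.0075), at 3.36 within run A (1 against 2 libraries) and at 2.74 within run B (1 against 1). It lost its call only without TAC Veh library S2, at 2.09 with adjusted p = 0.0517. The summed level of 10 macrophage markers was also higher, at 511.5 to 807 CPM in TAC Veh and 338.5 to 402.1 CPM in Sham Veh libraries, with 10 of 10 markers called higher (2 with TMM scaling). Of fibroblast, lymphocyte and red blood cell markers, 7 of 10, 3 of 6 and 5 of 5 tested were called higher too. With TMM scaling these counts were 4, 1 and 0. The part of these cell types in the result was not tested.

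Under 29P the same gene had 8 reads in S1, 28 in S3, 17 in S8, 13 in S9, 5 in S11 and 14 in S18 after TAC, and 0 in each of the 3 Sham 29P libraries S4, S14 and S15. All 6 TAC 29P libraries were thus above the Sham 29P ones. Over the 52.9 M reads of the Sham 29P group, 0 reads allow a level of up to 0.057 CPM (3 reads over the group, counting error only). The pooled TAC 29P level, from 85 reads in 120.0 M, was 12.5 times that level. This ratio of pooled reads leaves out the spread among animals, and S11 of TAC 29P stood at 0.23 CPM. The fitted log2 fold change of 2.88 (SE 0.47, adjusted p = 0.0014) depends on the constant added and is no bound. With TMM scaling it was 2.75 (adjusted p = 0.00275 by limma). Since the gene reached 0.5 CPM in 7 libraries, all of them TAC, it passed the filter through the groups in which it was high, and without any filter it was called in both comparisons as well.

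**Figure D2:**
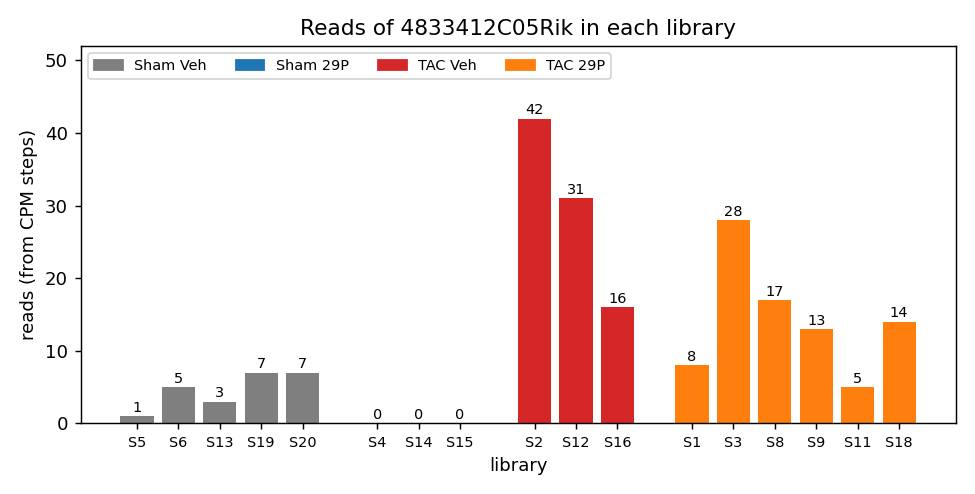
Reads of 4833412C05Rik in each of the 17 libraries, recovered from the CPM steps (y axis, reads; x axis, libraries by group). The bars stand at 16 to 42 reads in TAC Veh, 5 to 28 in TAC 29P, 1 to 7 in Sham Veh and 0 in all 3 Sham 29P libraries.

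Meg3 (ENSMUSG00000021268; chr12:109541001-109571726, plus strand) is the maternally expressed RNA of the Dlk1-Dio3 imprinted cluster. Of its 2 RefSeq promoters, the second (chr12:109545148-109545447, plus strand) held no CCAAT, TGACGTCA or TATAAA. The first (GRCm38.p6, chr12:109540746-109541045, plus strand) is shown because Meg3 is the other member called and this window holds the elements of a classical regulated promoter. In capitals are CCAAT, the cyclic AMP response element TGACGTCA, and TATAAA on both strands, whose matches overlap each other.
Meg3: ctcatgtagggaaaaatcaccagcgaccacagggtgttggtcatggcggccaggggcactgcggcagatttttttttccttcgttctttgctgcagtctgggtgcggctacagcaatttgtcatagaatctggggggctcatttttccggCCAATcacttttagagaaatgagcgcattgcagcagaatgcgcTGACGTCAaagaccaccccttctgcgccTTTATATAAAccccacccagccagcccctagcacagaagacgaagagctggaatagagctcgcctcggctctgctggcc

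The first bases of CCAAT, TGACGTCA and the plus-strand TATAAA lay at -100, -57 and -25 from the RefSeq start of the promoter shown. TGACGTCA was found on either strand in 588 of 32851 promoters (1.79%), and the second of the 2 Gas5 promoters (chr1:161034916-161035215) also held it, at -46. These are matches of letters, and no binding was measured.

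Meg3 was 20.2 CPM in S2, 17.8 in S12 and 27.1 in S16 of TAC Veh mice. In Sham Veh mice it was 12.3 CPM in S5, 6.97 in S6, 13 in S13, 9.02 in S19 and 15.4 in S20. All 3 TAC Veh libraries were above all 5 Sham Veh libraries. The log2 fold change was 0.96 (SE 0.30, 95% interval 0.33 to 1.60, adjusted p = 0.0293 by limma; exact two-sided permutation p = 0.0357, where 0.0179 is the smallest possible). Relative to the median of all genes it was 0.63, and with TMM scaling it was 0.64 with an adjusted p = 0.133, no longer called. Leaving out S2, S16, S6 or S19 also ended the call, with log2 fold changes of 1.003, 0.79, 0.80 and 0.90 and adjusted p from 0.0616 to 0.109. Within run A the difference was 1.12 (1 against 2 libraries) and within run B it was 0.45 (1 against 1).

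In TAC 29P mice Meg3 ranged from 10.7 to 35.5 CPM (median 16.2), against 11.8 CPM in S4, 8.96 in S14 and 12.5 in S15 of Sham 29P mice. The groups overlapped, since S1 at 10.7 CPM lay below 2 of the 3 Sham 29P libraries. The log2 fold change was 0.70 (SE 0.29, adjusted p = 0.072 by limma, exact two-sided permutation p = 0.0833). With TMM scaling it was 0.35 (adjusted p = 0.384 by limma). Without TMM scaling, Meg3 was called only when S1 was left out (0.85, adjusted p = 0.0323).

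The summed level of 10 fibroblast markers moved with Meg3 between groups: 3335 to 5175 CPM in TAC Veh, 2268 to 4888 in TAC 29P, 1506 to 2720 in Sham Veh and 1230 to 1895 in Sham 29P libraries, with 7 of 10 markers called higher and none lower in TAC Veh against Sham Veh mice (4 higher with TMM scaling). In that comparison 10 of 10 macrophage, 3 of 10 endothelial and 3 of 10 smooth muscle and pericyte markers were also called higher. With TMM scaling these counts were 2, 0 and 2. The part of any of these cell types in the Meg3 result was not tested. In bulk tissue, more cells of a type and more RNA per cell cannot be told apart.

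The neighbours of Meg3 in the same imprinted cluster were measured too. Rian, the next maternally expressed RNA and a host of small nucleolar RNAs, was 17.96 CPM (11.3 to 22.6) in TAC Veh and 13.1 CPM (10.1 to 16.8) in Sham Veh mice (median and range), with a log2 fold change of 0.35 (SE 0.30, adjusted p = 0.37) there and 0.72 (adjusted p = 0.0639) in TAC 29P against Sham 29P mice. Mirg, a host of microRNAs, stayed at 0.14 to 1.70 CPM and differed by -0.09 (SE 0.60, adjusted p = 0.92) in the Vehicle comparison. Dlk1, the paternally expressed gene, was at 0 to 0.13 CPM in all libraries and was not tested. Begain, a gene next to the cluster better known from synapses, rose from a median of 0.22 to 0.998 CPM (log2 fold change 1.59, SE 0.39, adjusted p = 0.0099 by limma; 1.33 with TMM scaling, adjusted p = 0.0328), and Wars, a tryptophanyl-tRNA synthetase, rose by 0.61 (adjusted p = 0.0279; 0.29 with TMM scaling, adjusted p = 0.214). Of 8 tested genes in the clusters of H19 and Meg3, other than the members, 2 were called higher and none lower in each TAC comparison, where 25.6% and 32.7% of all genes were called. With TMM scaling 1 was higher and none lower in Vehicle mice, and in 29P mice 1 was higher and 1 lower, Cdkn1c, an inhibitor of the cell cycle (-0.55, adjusted p = 0.0329 by limma). Around its own group mean, Meg3 followed Rian with r = 0.92 over the 9 TAC libraries and r = 0.18 over the 8 Sham ones, or 0.51 over the 14 libraries outside run D, a description only, with the scaling of each library shared between the genes.

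H19 (ENSMUSG00000000031; chr7:142575529-142578143, minus strand) is the maternally expressed partner of Igf2 and contains the hairpin of miR-675. The mature sequences from RefSeq (GRCm38.p6) are shown to mark what the H19 transcript carries, with the seed, bases 2 to 8, in capitals. The microRNAs themselves were not measured.
mmu-miR-675-5p: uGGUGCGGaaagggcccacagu
mmu-miR-675-3p: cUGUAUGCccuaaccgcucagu

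The level of H19 varied most among libraries of a group. Its residual SD was 1.05 on the log2 scale, larger than that of 98.4% of the tested genes, whose median was 0.30. In Sham Veh mice it was 10.9 CPM in S5, 6.89 in S6, 10.6 in S13, 41.6 in S19 and 21.9 in S20, and in TAC Veh mice 5.24 in S2, 6.99 in S12 and 5.33 in S16. TAC Veh libraries lay at the low end, but S12 overlapped with S6. The log2 fold change was -1.34 (SE 0.65, 95% interval -2.72 to 0.03, adjusted p = 0.126 by limma, exact two-sided permutation p = 0.0714). With TMM scaling it was -1.66 (adjusted p = 0.1 by limma).

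The Sham 29P libraries held 21.3 CPM of H19 in S4, 3.81 in S14 and 8.51 in S15, and the TAC 29P libraries ranged from 4.81 to 41.8 CPM (median 7.18). The groups overlapped in part: S18 of TAC 29P lay above every Sham 29P library, and S14 of Sham 29P below every TAC 29P library. Between them H19 had a log2 fold change of 0.20 (SE 0.63, adjusted p = 0.827 by limma), and it turned to -0.15 with TMM scaling and to -0.21 without animal run D. H19 was 21.9 to 41.8 CPM in the 3 libraries of animal run D and 3.81 to 21.3 CPM in the other 14, whichever surgery the animals had. Without animal run D the difference between TAC Veh and Sham Veh mice was -0.67 (adjusted p = 0.337 by limma), and -0.41 once the runs entered the model. It was -0.72 within run A (1 against 2 libraries) and -0.59 within run B (1 against 1). The atrial markers named above were high in the same 3 libraries, and their part in the H19 level was not tested. In S4 and S9, where H19 was 21.3 and 17.99 CPM, Sln was 0.09 and 0.32 CPM and Myl7 was 0.78 and 1.002 CPM. The atrial marker Myl4 was 2.31 and 4.43 CPM there. S9 and S4 ranked highest for Myl7 and Myl4 among the 14 libraries outside run D. Sln was highest of the 14 in S6, at 0.63 CPM, where H19 was 6.89 CPM. Myl7 was also 0.76 CPM in S6 and in S1, where H19 was 6.89 and 7.29 CPM.

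Igf2, the paternally expressed growth factor gene beside H19, varied with it. Of all tested genes it was the one most alike to H19: the deviations from the group means correlated with r = 0.97 over 17 libraries, 0.99 over the 9 TAC and 0.96 over the 8 Sham libraries. With the group means taken again, r was 0.96 over the 14 libraries outside animal run D, 0.99 over the 9 of run A, and 0.97 over the 15 left without the 2 farthest values of H19. Igf2 was 41.9 CPM in S18, 33.2 in S19 and 29.4 in S20, and 28.6 in S4 and 27.8 in S9, against 11.1 to 22.96 CPM in the other 12 libraries. H19 spanned 3.81 to 41.8 CPM, a wider range, so the ratio of H19 to Igf2 ran from 0.30 in S11 to 1.25 in S19. Next most alike were Wif1 (r = 0.93) and Sfrp5 (r = 0.91), both secreted Wnt inhibitors, with r = 0.93 and 0.81 over the 14 libraries outside run D. Sfrp5 was 2.50 to 3.65 CPM in run D and 0 to 0.84 CPM in the other 14 libraries. Igf2 itself was not called in TAC Veh against Sham Veh mice (-0.47, SE 0.32, adjusted p = 0.27). These correlations are descriptions across libraries that share their depth and scaling.

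**Figure D3:**
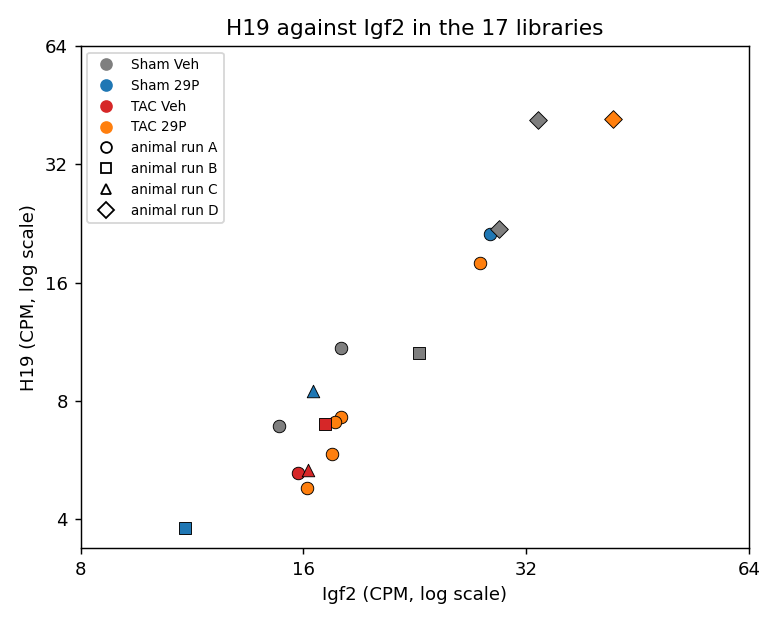
H19 against Igf2 in the 17 libraries (both axes CPM on a log2 scale, colour for the group, symbol for the run of animal numbers). The points rise together, from 11.1 CPM of Igf2 and 3.81 of H19 in S14 to 41.9 and 41.8 CPM in S18, with the 3 libraries of run D at the upper end.

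Imprinted genes often move as a network in growing tissue, and a list of 22 was examined, of which 19 were tested. In TAC Veh against Sham Veh mice 6 were called higher and 1 lower (36.8%, against 25.6% of all genes), with a median log2 fold change of 0.28 against 0.33 over all genes. The gene called lower was Snrpn, a component of spliceosomal ribonucleoproteins (-0.46, SE 0.14, adjusted p = 0.0293; with TMM -0.78, adjusted p = 0.0017). Grb10, an inhibitor of growth factor receptors, rose by 0.76 (SE 0.12, adjusted p = 0.0011; 0.44 with TMM scaling, adjusted p = 0.017), and Mest rose by 1.38 (SE 0.37, adjusted p = 0.015; with TMM 1.06, adjusted p = 0.058). Igf2r, which clears Igf2 from the cell surface, and Gatm, a creatine synthesis enzyme, rose by 0.53 and 0.88 (adjusted p = 0.0221 for both; 0.21 and 0.57 with TMM, adjusted p = 0.295 and 0.124). In TAC 29P against Sham 29P mice 8 of the 19 were called higher and none lower (42.1%, against 32.7% of all genes). With TMM scaling the counts were 1 higher and 1 lower in the Vehicle comparison and 1 higher and 2 lower in the 29P comparison.

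Malat1 (ENSMUSG00000092341; chr19:5795690-5802672, minus strand) and Neat1 (ENSMUSG00000092274; chr19:5824708-5845478, minus strand) are neighbours, 22.04 kb apart, and were the most abundant members, above 99.2% and 99.4% of tested genes by mean log2 CPM. What oligo(dT) captures of them depends on their 3′ ends. The last 30 bases of the main Malat1 transcript and of the short and long Neat1 transcripts (GENCODE vM21) are shown to compare their annotated ends. AATAAA, the poly(A) signal, is in capitals, and whether the RNAs carried a poly(A) tail at these ends was not measured.
Malat1-201: ttttatgaAATAAAaactaaatatctctca
Neat1-202: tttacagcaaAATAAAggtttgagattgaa
Neat1-201: gagaacgaacgtgagcaggaaaaagcaaaa

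The short Neat1 transcript of 3004 bases ends after a poly(A) signal. The long one of 20771 bases, the scaffold of paraspeckles, has none in its last 50 bases. The annotated gene counts both, so a shift between them would not be seen in these values. Malat1 contains a run of 12 A's that begins 310 bases before its annotated end. Gm37376 on the opposite strand overlaps Malat1 and is also among the genes listed. With the strand setting of the counting not stated, reads could not be assigned between them with certainty.

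Malat1 was 627.2 CPM in S2, 727.4 in S12 and 630.7 in S16 of TAC Veh mice and 432.2 to 747.4 CPM in Sham Veh mice. The TAC Veh libraries fell inside the Sham Veh range. The log2 fold change was 0.25 (SE 0.24, 95% interval -0.25 to 0.74, adjusted p = 0.436), and it turned to -0.08 with TMM scaling and was 0.14 without animal run D. In 29P mice the levels were 351 to 616 CPM after Sham surgery and 370.6 to 821.7 CPM after TAC, with a difference of 0.04 (95% interval -0.44 to 0.52) that was -0.32 with TMM and -0.11 without animal run D.

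Neat1 was 829.6 CPM in S2, 692.8 in S12 and 746.2 in S16 of TAC Veh mice against 610.5 to 779.5 CPM in Sham Veh mice, which overlapped. The difference was 0.13 (SE 0.19, 95% interval -0.26 to 0.53, adjusted p = 0.6), and -0.19 with TMM. It was -0.17 (95% interval -0.55 to 0.21) in TAC 29P against Sham 29P mice and -0.53 with TMM (adjusted p = 0.0944). The Sham 29P libraries were far apart, at 483.4, 664.2 and 1115 CPM, and without S4, the lowest, the difference was -0.45 with an adjusted p = 0.0417, while without S15, the highest, it turned to 0.15 with an adjusted p = 0.456. Around the group means Malat1 and Neat1 correlated with r = 0.73 over the 8 Sham libraries and -0.55 over the 9 TAC ones.

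The protein partners of these RNAs were examined next. Of 20 paraspeckle proteins, all tested, 2 were called higher and none lower in TAC Veh against Sham Veh mice (10%, against 25.6% of all genes), among them Nono, a core paraspeckle protein, by 0.34 (SE 0.10, adjusted p = 0.0215 by limma). With TMM scaling Nono stood at 0.014 and none of the list was called higher, while 1 was called lower. The median of the list was 0.20, against 0.33 for all genes, and 3 of its proteins were called higher in TAC 29P against Sham 29P mice (15%, against 32.7% of all genes), where with TMM none was higher and 3 were lower. None of 20 nuclear speckle proteins and Malat1 partners was called in the Vehicle comparison, where 5 had an unadjusted p under 0.05, all tested with limma. The smallest p was that of Srrm2, a speckle scaffold (0.45, SE 0.17, adjusted p = 0.0556 by limma). In TAC 29P against Sham 29P mice 3 of the 20 were called higher (15%, against 32.7% of all genes), among them Ezh2, the histone H3 lysine methyltransferase (0.43, adjusted p = 0.0426; with TMM 0.08). With TMM none of the 20 was called in either direction, and the median of the list was -0.27.

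Gas5 (ENSMUSG00000053332; chr1:161034422-161038539, plus strand) carries small nucleolar RNAs in its introns, 10 of which are annotated within it, and its spliced transcript is a substrate of nonsense-mediated decay. Zbtb37 on the opposite strand overlaps it and is listed in the same table, so with the strand setting of the counting not stated, reads could not be assigned between them with certainty. Gas5 was 37.7 CPM in S2, 30.3 in S12 and 45.5 in S16 of TAC Veh mice, and 24.5 to 39.5 CPM in Sham Veh mice. Of the 3 TAC Veh libraries, S2 and S12 lay within the Sham Veh range. The log2 fold change was 0.25 (SE 0.19, adjusted p = 0.335 by limma), -0.08 with TMM, and 0.45 without animal run D (adjusted p = 0.116). In TAC 29P mice it was 25.9 to 43.1 CPM (median 33.01), against 22 to 28.8 CPM in Sham 29P mice, a difference of 0.35 (95% interval -0.05 to 0.74, adjusted p = 0.156) that was -0.01 with TMM. Gas5 varied most like Selenof (r = 0.95), Nck1 (r = 0.93) and Ptma (r = 0.93) around the group means, and with r = 0.63 like 4833412C05Rik.

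Other host genes of small nucleolar RNAs were examined beside it. Of 15 tested, 1 was called higher in TAC Veh against Sham Veh mice (6.67%, against 25.6% of all genes), Snhg17 (0.58, SE 0.18, adjusted p = 0.0248; 0.26 with TMM, adjusted p = 0.32), and none lower. In TAC 29P against Sham 29P mice 3 were called higher (20%, against 32.7% of all genes), with Snhg18 at 0.96 (SE 0.21, adjusted p = 0.0055; 0.61 with TMM, adjusted p = 0.042) and Snhg17 at 0.63 (adjusted p = 0.0135). The medians, 0.27 and 0.32, were close to those of all genes. Of 14 genes of nonsense-mediated decay and Gas5 partners, 5 were called higher in each TAC comparison and none lower (35.7%, against 25.6% and 32.7% of all genes). With TMM none was called in Vehicle mice, and 1 was higher and 1 lower in 29P mice. Upf3a, a decay factor, rose by 0.60 (SE 0.15, adjusted p = 0.0134) and Nr3c1, the glucocorticoid receptor to which Gas5 can bind, by 0.49 (SE 0.15, adjusted p = 0.0247) in Vehicle mice. Their TMM values were 0.27 and 0.16, and neither passed with that scaling.

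Miat (ENSMUSG00000097767; chr5:112213228-112229395, minus strand), named for its link to myocardial infarction in people, was barely detected. It had 0 reads in S2, 0 in S12 and 1 in S16 of TAC Veh mice, 8 reads in all over Sham Veh, 4 over Sham 29P and 12 over TAC 29P mice. The totals over 341.7 M reads came to 25 reads, so a difference between groups was not detectable at this depth. Of the splicing factors linked to it, Celf2, an RNA-binding splicing regulator, was called higher in TAC Veh against Sham Veh mice (0.38, SE 0.11, adjusted p = 0.0197; 0.06 with TMM), 1 of 5 tested, and Nova1 alone of the 5 in TAC 29P against Sham 29P mice (0.60, SE 0.19, adjusted p = 0.0259; 0.25 with TMM), which is 20% in each, against 25.6% and 32.7% of all genes.

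To ask whether 29P changed these RNAs, the 2 treatments were compared within each surgery. No member passed an adjusted p of 0.05 in TAC 29P against TAC Veh mice, where 0% of all genes did (limma, 0 of 16218), and 1 of 6 passed an unadjusted p of 0.05, against 2.06% of all genes. This was 4833412C05Rik, lower by 1.03 on the log2 scale in TAC 29P mice (log2 fold change -1.03, SE 0.47, 95% interval -2.02 to -0.04, unadjusted p = 0.0427 and adjusted p = 1 by limma; exact two-sided permutation p = 0.0833, where 0.0119 is the smallest possible). Its 6 TAC 29P libraries, at 0.23 to 1.40 CPM, overlapped with the 3 TAC Veh libraries at 0.85 to 2.10 CPM. The groups overlapped for all 7 members, and for all but 1.83% of the genes tested. The other differences were -0.41 for Malat1 (95% interval -0.89 to 0.07), -0.26 for Neat1 (-0.64 to 0.12), -0.25 for Meg3 (-0.87 to 0.37), -0.20 for Gas5 (-0.59 to 0.19) and 0.80 for H19 (-0.53 to 2.13), all with an adjusted p = 1. Within run A, the only run with both TAC groups, 1 TAC Veh library stood against 5, and the difference of 4833412C05Rik was -1.66. Without animal run D the values were -0.56 for Malat1 (unadjusted p = 0.0116 and adjusted p = 1 by limma), -0.45 for Meg3 and 0.39 for H19, so that 2 members passed an unadjusted p of 0.05. The 5 red blood cell markers also had an unadjusted p under 0.05 in this comparison, with a median of -1.11 and summed levels of 1036 to 4151 CPM in TAC 29P and 3082 to 4992 CPM in TAC Veh libraries, and their part in the results was not tested. All 5 were called higher in TAC Veh against Sham Veh mice (0 with TMM scaling), where the Sham Veh libraries summed to 1018 to 2463 CPM.

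In Sham 29P against Sham Veh mice no member passed the adjusted threshold either, with 0% of all genes, and again 1 of 6 had an unadjusted p under 0.05, 6.72% of all genes. This was 4833412C05Rik, with 0 reads in 52.9 M against 23 reads in 109.6 M (log2 fold change -1.54, SE 0.49, p = 0.0054, adjusted p = 0.715 by limma, exact two-sided permutation p = 0.0357). The pooled Sham Veh level was 3.70 times a level of 3 reads over the Sham 29P group. That ratio leaves out the spread among animals, and S5 of Sham Veh had 1 read. The groups did not overlap for this member alone, and 2.14% of all genes did not overlap. With the constant of 0.0001 that the deposited values carry, the adjusted p became 5.71e-05, because 0 then lies far below 1 read. Meg3 differed by 0.01 (95% interval -0.63 to 0.65), Neat1 by 0.05 (-0.35 to 0.44), Malat1 by -0.20 (-0.70 to 0.29), Gas5 by -0.30 (-0.71 to 0.11) and H19 by -0.74 (-2.12 to 0.63). Without the run D libraries S19 and S20 of Sham Veh and S18, H19 differed by -0.067, Gas5 by -0.094, Malat1 by -0.31 and Meg3 by 0.082.

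Whether the TAC change differed between treatments was tested by the interaction. No member passed, with 0% of all genes called, and none had an unadjusted p under 0.05, against 2.85% of all genes. The largest value was that of H19, 1.54 (SE 0.91, 95% interval -0.37 to 3.45, adjusted p = 0.999 by limma), which was 0.46 without animal run D and 0.041 once the runs entered the model. For 4833412C05Rik it was 0.51 (95% interval -0.91 to 1.93) and for Meg3 it was -0.26 (-1.15 to 0.63), wide intervals that reach past 0 on both sides. Without animal run D these were 0.050 and -0.53.

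**Figure D4:**
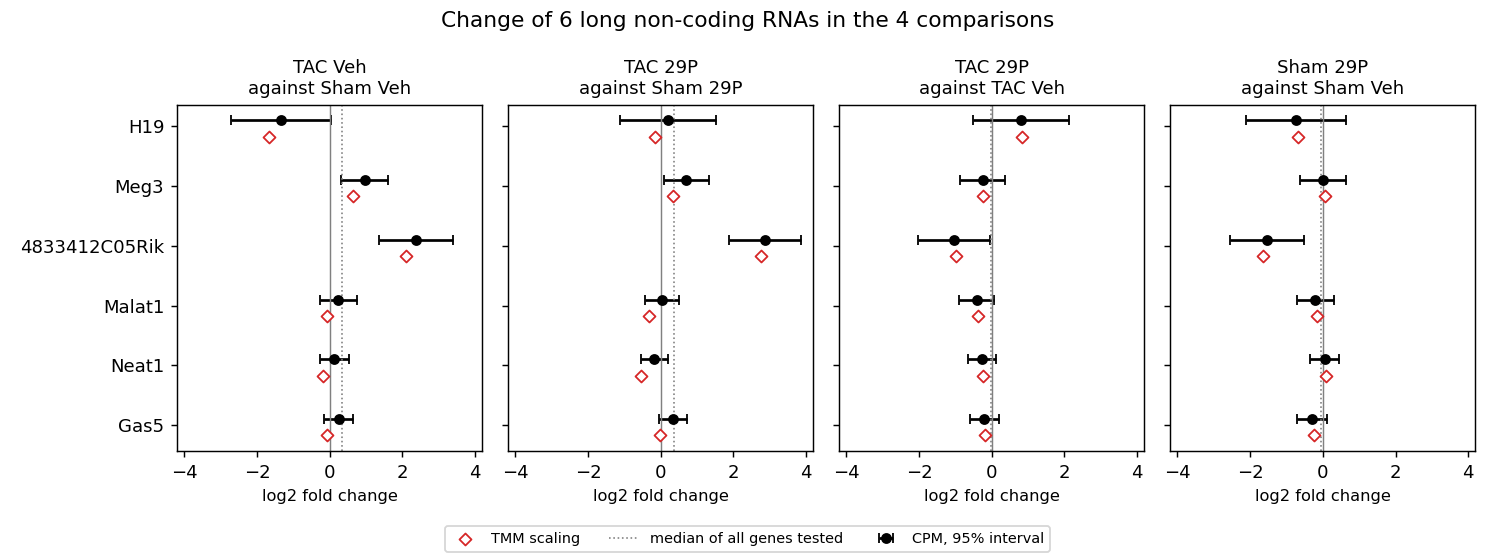
Log2 fold change of the 6 tested members in the 4 comparisons. Black points and bars give the limma estimate on log2(CPM + 0.1) with its 95% interval, open diamonds the value with TMM scaling, and the dotted line the median of all 16218 genes. The intervals of 4833412C05Rik and Meg3 lie above 0 in the TAC comparisons, and the diamonds sit lower than the points there.

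Long non-coding RNAs beyond the 7 were examined as background. Of 47 listed by name, 33 were in the table and 26 tested. In TAC Veh against Sham Veh mice 2 were called higher (7.69%, against 25.6% of all genes): Oip5os1, also known as Cyrano (0.40, SE 0.12, adjusted p = 0.0284), and Peg13, an imprinted RNA (0.49, SE 0.17, adjusted p = 0.0381). Their TMM values were 0.07 and 0.17, and neither was called with it. In TAC 29P against Sham 29P mice 5 were called higher and 2 lower (26.9%, against 32.7% of all genes), and with TMM none was higher and 3 were lower. The list had medians of 0.19 and 0.15 in these comparisons, below those over all genes, and none of it was called in the 29P comparisons, where 0 (TAC) and 5 (Sham) had an unadjusted p under 0.05. Among the other 1000 tested genes of a long non-coding biotype, 10.5% were called in TAC Veh against Sham Veh and 14.4% in TAC 29P against Sham 29P mice, with medians of 0.19 and 0.24. Protein-coding genes were called at 28.6% and 36.0% (medians 0.36 and 0.38). The gap was smaller with TMM scaling: 724 of 13610 protein-coding genes were then called higher and 752 lower in TAC Veh against Sham Veh, and 13 and 70 of the 1000 non-coding ones, and in TAC 29P against Sham 29P the counts were 931 and 725 against 20 and 47. The 2 classes also differ in level, which was not matched here.

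Around the group means, 4833412C05Rik was most alike to Ccl12, a chemokine gene (r = 0.85), Nme7 (r = 0.85) and Commd3 (r = 0.85). Meg3 was most alike to Rnf103 (r = 0.92), Rbbp4 (r = 0.91) and Nmt2 (r = 0.90), Malat1 to Adam22 (r = 0.87), Pan3 (r = 0.83) and Rsbn1l (r = 0.82), and Neat1 to Gm8189 (r = 0.74), Glul (r = 0.73) and AC160336.1 (r = 0.73). Glul, glutamine synthetase, followed Neat1 with r = 0.94 over the 8 Sham libraries but -0.26 over the 9 TAC ones. These are the closest of 16218 genes by Pearson's r over 17 libraries and are given as a description.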

How the data were processed

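Bulk mRNA libraries of the left ventricular apex (oligo(dT) beads, NEBNext Ultra II) were sequenced by the authors, aligned to mm10 (STAR version 2.3.7, run within Partek Flow, per the labels), and deposited as CPM values with a constant of 0.0001 added. The library kit marks strand, but the strand setting of the counting is not given in the sources used here. The authors annotated genes with GENCODE release 25; the file starts of the 7 members matched GENCODE vM21, whose coordinates are printed.

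The constant was removed here. Depth was estimated from the step between low values. About 80 to 82% of low values were whole multiples of the step (tolerance 0.05), so read counts were not restored for the table and no count test was run. Genes with CPM of at least 0.5 in at least 3 libraries (16218) were fitted with limma 3.58.1 in R 4.3.3 on log2(CPM + 0.1), with 1 mean per group over all 17 libraries (13 residual degrees of freedom) and a variance trend. The fit was tested on simulated data. Calls used a Benjamini-Hochberg adjusted p of 0.05. For single members, libraries were permuted between groups in all arrangements (exact, two-sided). Intervals are 95%, and floors of 3 reads cover counting error only. Alternatives were other scalings, constants and filters, no trend, the 2 groups alone, the animal run as covariate, each library left out, and, added after seeing the data, animal run D left out.

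Members and gene lists were chosen with earlier results of these data known. Named from each list were the up to 4 genes with the smallest p in TAC Veh against Sham Veh and up to 2 in TAC 29P against TAC Veh. Igf2, Dlk1, Rian and Mirg were named in any case. Ezh2 and Nova1 met the rule of the smallest p, but the values printed for them are from TAC 29P against Sham 29P. A few more (Sln, Myl7, Myl4) were named after their values were seen. Labels give each library its own animal number and no batch beyond the runs of these numbers. A gene of a list that the rule would name is not reported here.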

Additional observations from a re-analysis of the deposited data

How the results depend on the processing

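No paired analysis was possible because the groups compared share no replicate numbers. In TAC Veh against Sham Veh mice, 2 members were called, and 1 with TMM factors, with median-of-ratios factors or with totals without mitochondrial genes, where Meg3 was lost (log2 fold change 0.64, 0.64 and 0.81, adjusted p = 0.133, 0.135 and 0.0575). Leaving out 1 library gave 0 to 2 calls there, 1 to 2 in TAC 29P against Sham 29P, and 0 to 0 in the 29P comparisons and the interaction. At an unadjusted p of 0.05 the counts were 2 in TAC 29P against Sham 29P and 1 in each 29P comparison. With the deposited constant of 0.0001, 4833412C05Rik was called in Sham 29P against Sham Veh (log2 fold change -10.74) and in the interaction (9.57, adjusted p = 0.034), 1 call each, because 0 then lies far below 1 read.

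Directions of members that were not called turned with scaling or with the run. In TAC Veh against Sham Veh, TMM and median-of-ratios gave -0.079 and -0.08 for Malat1, -0.19 and -0.19 for Neat1 and -0.077 and -0.078 for Gas5, and Neat1 was -0.022 without mitochondrial totals and -0.087 with the run as a covariate. In TAC 29P against Sham 29P, TMM and median-of-ratios gave -0.15 and -0.15 for H19, -0.32 and -0.32 for Malat1 and -0.0091 and -0.0125 for Gas5. Malat1 was -0.14 without mitochondrial totals, and with the run as a covariate H19 was -0.37 and Neat1 0.054. Without animal run D, H19 was -0.21 and Malat1 -0.11. With the run as a covariate, Sham 29P against Sham Veh gave 0.19 for H19 and -0.17 for Neat1, and the interaction 0.18 for Malat1, 0.14 for Neat1, -0.029 for Gas5 and -0.32 for 4833412C05Rik. The interaction of 4833412C05Rik was -0.26 with a constant of 1, and that of Gas5 -0.15 without run D. The cause was not tested. No called value changed direction under the alternatives run.

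Leaving out 1 library turned H19 (-0.40 to 0.83), Malat1 (-0.20 to 0.21) and Neat1 (-0.45 to 0.15) in TAC 29P against Sham 29P, Meg3 (-0.15 to 0.15), Malat1 (-0.38 to 0.028) and Neat1 (-0.28 to 0.32) in Sham 29P against Sham Veh, and Neat1 (-0.58 to 0.020) and Gas5 (-0.050 to 0.24) in the interaction. Over all genes, 3827 were called higher and 321 lower in TAC Veh against Sham Veh and 5110 and 187 in TAC 29P against Sham 29P, against 747 and 900, and 976 and 828, with TMM. Without animal run D the former comparison gave 2333 and 167, and with the run as a covariate the latter gave 820 and 34. Limits: groups of 3 libraries, few reads for 4833412C05Rik and Miat, and isoforms that are not separated.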
